A study of Canis lupus familiaris with 9 samples.

Results

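The receptors for interleukin 2 (IL2) and interleukin 7 (IL7), with the kinases and STAT5 factors that carry their signal, were followed through canine CD4+ peripheral T cell lymphoma, a cancer of mature helper T cells. The set held 10 genes: the receptor chains IL2RA, IL2RB, IL2RG and IL7R, the kinases JAK1, JAK3 and TYK2, the transcription factors STAT5A and STAT5B, and the feedback inhibitor CISH. They were taken by gene symbol from the 28008 features of the series. Each of the 10 symbols matched 1 feature, and all 10 passed the filter on low values.

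IL2 binds a receptor built from an alpha chain (IL2RA), a beta chain (IL2RB) and the common gamma chain (IL2RG), while IL7 binds IL7R paired with the same gamma chain. JAK1 sits on IL2RB and IL7R and JAK3 on the gamma chain. Upon ligand binding they phosphorylate STAT5A and STAT5B, which enter the nucleus and switch on target genes, among them CISH. TYK2 belongs to the same kinase family and serves other receptors, such as those of interleukin 12 and the type I interferons. In resting CD4+ T cells IL7 signalling sustains survival. IL2RA marks activated and regulatory T cells. Messenger RNA was measured here, and phosphorylation of STAT5 was not.

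The series held 9 RNA sequencing libraries in 3 groups. The control group, 3 libraries, was CD4+ T cells that had been sorted from hounds in good health (female, 1 year old, not neutered). The Boxer group was 3 lymphomas of Boxers: castrated males aged 6 years (lymphomas 1 and 3) and a spayed female aged 8 years (lymphoma 2). The other-breed group was a spayed female Cavalier King Charles Spaniel aged 3 years (lymphoma 1), a spayed female Rhodesian Ridgeback aged 4 years (lymphoma 2) and a castrated male Collie aged 11 years (lymphoma 3). Disease, breed, age, neutering and the sorting named for the controls alone cannot be told apart in comparisons with the controls. The labels do not say that the 3 controls were separate dogs, and they give neither the tissue nor any sorting of the lymphomas, so the p-values rest on the spread between libraries, which may be technical.

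Total reads ran from 11710623 to 18488468 per library, and the 10 genes had between 92 and 30438 reads each in a library. The first principal component (51.3% of the variance) separated controls from lymphomas, and the second (14.2%) set other-breed lymphomas 1 and 2 apart from the remaining libraries. Of 10 T cell identity genes 8 were found. Their summed normalised counts were 78549 to 81614 in controls and 62136 to 106319 in lymphomas, with CD3G higher and 0 of 8 lower. CD5 lay below every control in all 6 lymphomas (265 to 4320, against 10272 to 10649) without passing (limma adjusted p = 0.0591), and in the other-breed comparison CD5 was lower (limma adjusted p = 0.00131) and CD2 higher (0.0389). CD4 itself was not analysed here. The libraries also differed in markers of other cells and states. Summed macrophage markers (12 of 13 found, 9 of 10 tested higher) were 117 to 197 in controls and 795 to 18557 in lymphomas. FCER1G was at 0 in every control. Summed cell division genes (7 of 7 higher) were 1710 to 1990 and 11648 to 32270. Summed resting T cell genes (5 of 7 lower) were 68809 to 77209 and 23942 to 55951. Summed immediate early genes (7 of 12 lower) were 27780 to 102507 and 4044 to 15644. The part of these differences in the results for the 10 genes was not tested.

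The first question was whether the lymphomas differed from normal CD4+ T cells in this pathway. Transcripts of 8 of the 10 genes were lower in the 6 lymphomas: IL2RA, IL2RB, IL7R, JAK3, TYK2, STAT5A, STAT5B and CISH. By limma 0 of the 10 were higher at an adjusted p under 0.05, 1 (IL2RG) was higher at an unadjusted p under 0.05, edgeR called 0 and DESeq2 called 1 higher. JAK1 did not pass either way. Over all 15977 features tested, 15.7% were called lower and 19.4% higher. The median log2 fold change was -1.31 over the 10 genes and 0.05 over all features. In bulk RNA, fewer cells that express a gene and less RNA per cell cannot be told apart. The 8 calls became 4, 5 and 5 without control 1, 2 or 3, 5 by edgeR, and 5 with age as a covariate. Since every control was aged 1 year, only the lymphomas informed the age term. In that fit the log2 fold changes of IL2RA, IL7R and CISH grew to -5.24, -4.24 and -3.64 (limma adjusted p = 0.00307, 0.0202 and 0.00442). The oldest dog, that of other-breed lymphoma 3 (11 years), had the highest lymphoma values of these 3 genes. The larger fold changes therefore cannot be told apart from the values of that 1 library. It also had the lowest STAT5B of the lymphomas (959) and low TYK2 (1261) and STAT5A (2482). The calls of TYK2, STAT5A and STAT5B, which ended with age in the fit, have the same limit. Among female dogs alone, which leaves out Boxer lymphomas 1 and 3 and other-breed lymphoma 3, the log2 fold change of IL7R was -3.49 (limma adjusted p = 0.00194). With sex as a covariate it was -3.49 as well (limma adjusted p = 0.00195). The male lymphomas had the highest IL7R values (3914, 2033 and 7671, against 346 to 1118 in the female lymphomas). Sex and single libraries cannot be told apart there.

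**Figure D1:**
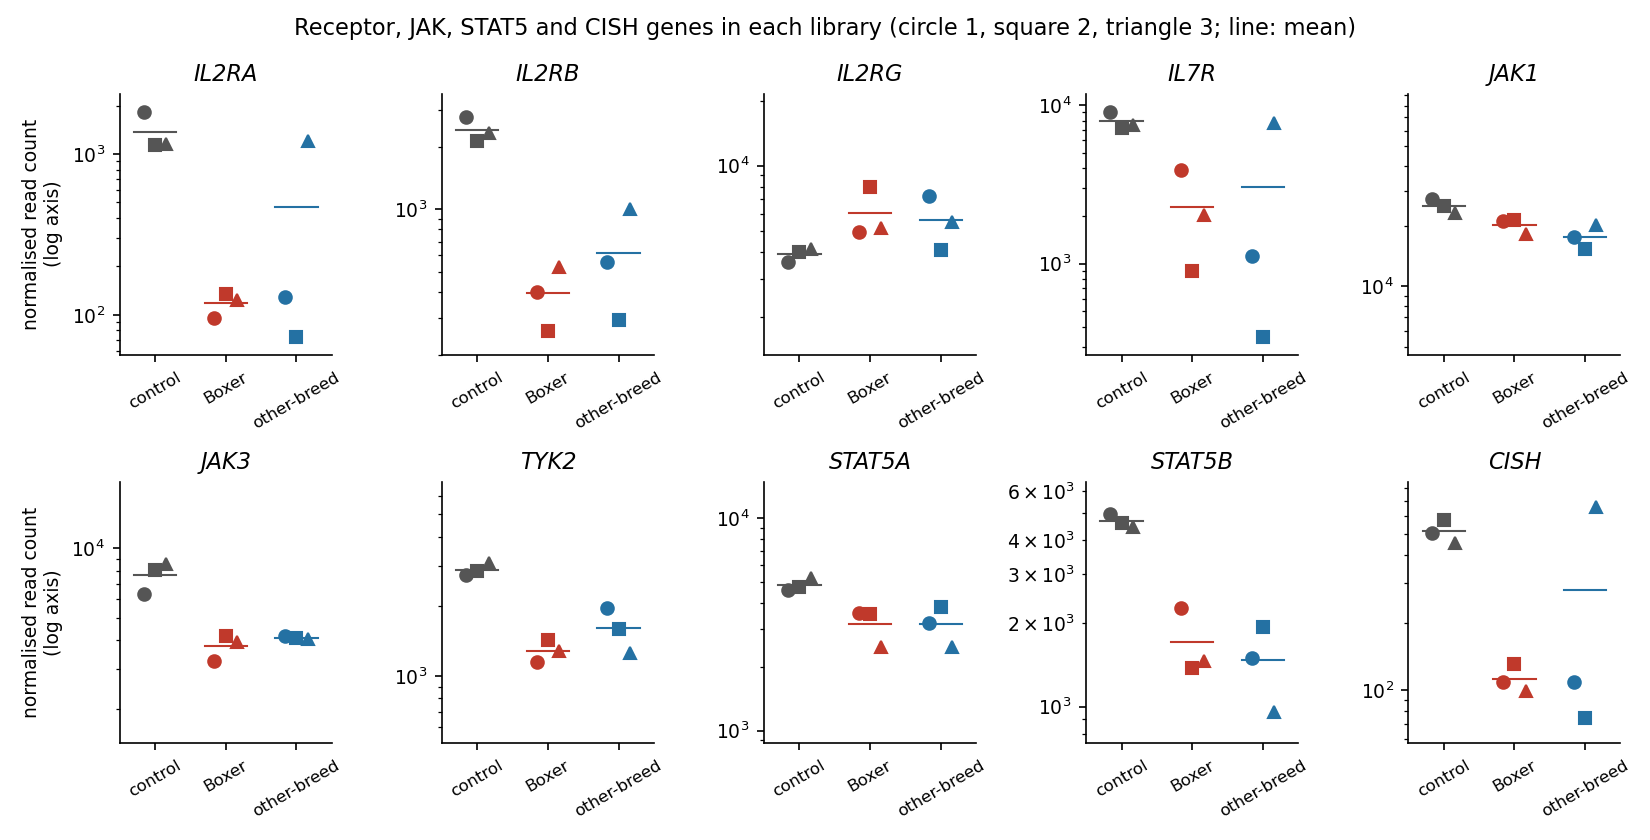
Normalised read count (log axis) of each of the 10 genes in the 3 controls, 3 Boxer lymphomas and 3 other-breed lymphomas; each point is 1 library, its shape gives the replicate number and the line is the group mean. STAT5B, JAK3, TYK2 and IL2RB lie below the controls in all 6 lymphomas, while the other-breed triangle of IL2RA, IL7R and CISH lies at or near the control level.

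Of the receptor chains, IL2RA (ENSCAFG00000005210), the alpha chain that gives the IL2 receptor its high affinity, changed most. It stood at 1829, 1130 and 1147 normalised counts in controls 1, 2 and 3, at 96.0, 135 and 124 in Boxer lymphomas 1, 2 and 3, and at 128, 73.3 and 1199 in other-breed lymphomas 1, 2 and 3. The first 5 of these lymphomas lay far below every control, whereas other-breed lymphoma 3 lay inside the control range. Across the 6 lymphomas IL2RA was 8.17-fold lower (log2 fold change -3.03 ± 0.73 SE, limma adjusted p = 0.0103). That call ended by edgeR (adjusted p = 0.0582) and in limma without control 1 (adjusted p = 0.0523).

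IL2RB (ENSCAFG00000001511), the signalling beta chain that IL15 also uses, was lower in every lymphoma. Its normalised counts were 2769, 2139 and 2337 in the controls, 398, 260 and 528 in the Boxer lymphomas and 559, 293 and 1006 in the other-breed lymphomas. Again other-breed lymphoma 3 was the highest of the lymphomas, here still below the lowest control. The difference was 5.25-fold (log2 fold change -2.39 ± 0.37 SE, limma adjusted p = 0.00118).

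The common gamma chain IL2RG (ENSCAFG00000028978), shared by the receptors of several interleukins, was not lower. Its normalised counts were 3594, 3992 and 4130 in the controls, 4912, 7983 and 5129 in the Boxer lymphomas and 7217, 4068 and 5462 in the other-breed lymphomas. Of the 6 lymphomas 5 exceeded every control, and other-breed lymphoma 2 lay within the control range. The log2 fold change of 0.53 ± 0.21 SE (95% interval 0.06 to 1.00) did not pass by limma (adjusted p = 0.0737). It passed without other-breed lymphoma 2 (limma adjusted p = 0.0290), without other-breed lymphomas 1 and 2 (limma adjusted p = 0.0487) and by DESeq2 (adjusted p = 0.0437).

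IL7R (ENSCAFG00000018752), the ligand-specific chain of the IL7 receptor, had the widest range among the lymphomas. It was at 9116, 7174 and 7486 normalised counts in the controls, at 3914, 894 and 2033 in the Boxer lymphomas, and at 1118, 346 and 7671 in the other-breed lymphomas. Other-breed lymphoma 3 lay inside the control range and the other 5 below it. The 4.74-fold difference (log2 fold change -2.24 ± 0.79 SE) passed narrowly by limma (adjusted p = 0.0485). The call ended by edgeR (adjusted p = 0.116), by DESeq2 (adjusted p = 0.0672), and in limma with no filter on low values (adjusted p = 0.0578), without control 1, 2 or 3 (0.140, 0.118 and 0.119), Boxer lymphoma 2 (0.0832), Boxer lymphoma 3 (0.0673), other-breed lymphoma 1 (0.071) or other-breed lymphomas 1 and 2 together (0.0738).

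Among the kinases, JAK3 (ENSCAFG00000015159), the partner of the gamma chain, was lower in each lymphoma with little spread. Its normalised counts were 6333, 8010 and 8542 in the controls, 3230, 4163 and 3907 in the Boxer lymphomas and 4167, 4089 and 4033 in the other-breed lymphomas. The groups did not overlap, and the difference was 1.93-fold (log2 fold change -0.95 ± 0.15 SE, limma adjusted p = 0.00117).

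TYK2 (ENSCAFG00000017834) behaved alike in direction. It was at 2748, 2850 and 3071 normalised counts in the controls, at 1151, 1432 and 1279 in the Boxer lymphomas and at 1972, 1594 and 1261 in the other-breed lymphomas. Every lymphoma lay below every control, a 2.03-fold difference (log2 fold change -1.02 ± 0.18 SE, limma adjusted p = 0.00210). Once age entered the fit its limma adjusted p was 0.108.

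JAK1 (ENSCAFG00000018615), the partner of IL2RB and IL7R, differed least. Its normalised counts were 27346, 25130 and 23236 in the controls, 21340, 21448 and 18221 in the Boxer lymphomas and 17562, 15308 and 20176 in the other-breed lymphomas. Although the groups did not overlap, the log2 fold change of -0.42 ± 0.17 SE did not pass by limma (adjusted p = 0.0801). DESeq2 gave an adjusted p of 0.0208. In the RefSeq annotation of UU_Cfam_GSD_1.0, another build than that of the files, JAK1 overlaps RAVER2 and 3 genes that are not protein coding, and IL2RA and IL2RB each overlap 1 long noncoding RNA gene. Without a stated strand, reads of such overlapping genes may not be separable.

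The STAT5 genes differed in the size of their change. STAT5B (ENSCAFG00000015509) stood at 4970, 4580 and 4440 normalised counts in the controls, at 2279, 1384 and 1459 in the Boxer lymphomas and at 1503, 1943 and 959 in the other-breed lymphomas. All 6 lymphomas lay below the lowest control by a wide margin, with other-breed lymphoma 3 lowest. The difference was 3.04-fold (log2 fold change -1.60 ± 0.24 SE, limma adjusted p = 9.10e-04), and its limma adjusted p was 0.0533 once age entered the fit.

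STAT5A (ENSCAFG00000015346), which lies next to STAT5B with STAT3 on its other side, was at 4574, 4727 and 5221 normalised counts in the controls, at 3564, 3527 and 2460 in the Boxer lymphomas and at 3187, 3804 and 2482 in the other-breed lymphomas. The lymphomas again lay below the controls, by a smaller margin. The difference was 1.55-fold (log2 fold change -0.63 ± 0.18 SE, limma adjusted p = 0.0193). It ended in limma with sex (adjusted p = 0.0922) or age (0.385) as a covariate, among female dogs alone (0.0545), with CD3 scaling (0.0549), and without control 1, 2 or 3 (0.0517, 0.0665 and 0.0838). STAT5A and STAT5B are close paralogs, and reads in their similar stretches may have been assigned unevenly or dropped.

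CISH (ENSCAFG00000010293), a SOCS family inhibitor that STAT5 induces, is often read as a record of STAT5 activity. Its normalised counts were 505, 577 and 455 in the controls, 108, 130 and 98.9 in the Boxer lymphomas and 108, 74.9 and 655 in the other-breed lymphomas. In 5 lymphomas CISH lay far below every control, and in other-breed lymphoma 3 it exceeded every control. Over the 6 lymphomas it was 3.63-fold lower (log2 fold change -1.86 ± 0.58 SE, limma adjusted p = 0.0302). This call ended by edgeR (adjusted p = 0.108) and in limma without control 1, 2 or 3 (adjusted p = 0.0893, 0.107 and 0.0796), without Boxer lymphoma 3 (0.0538) and without other-breed lymphomas 1 and 2 (0.0709). DESeq2 gave CISH no adjusted p.

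Ratios within a library do not depend on how libraries are scaled, and 3 were compared by exact permutation of the group labels (two-sided, 84 arrangements, so that p cannot go below 0.0119). The log2 ratio of STAT5B to STAT5A was 0.12, -0.05 and -0.23 in the controls, -0.65, -1.35 and -0.75 in the Boxer lymphomas and -1.08, -0.97 and -1.37 in the other-breed lymphomas. Every lymphoma had less STAT5B relative to STAT5A than any control (mean difference -0.98, exact permutation p = 0.0119, adjusted p = 0.0357 over 3 ratios). The log2 ratio of IL7R to IL2RG was 1.34, 0.85 and 0.86 in the controls, -0.33, -3.16 and -1.33 in the Boxer lymphomas and -2.69, -3.55 and 0.49 in the other-breed lymphomas. These groups did not overlap either (mean difference -2.78, exact permutation p = 0.0238, adjusted p = 0.0357). The log2 ratio of IL2RA to IL2RB was -0.60, -0.92 and -1.03 in the controls, -2.04, -0.94 and -2.08 in the Boxer lymphomas and -2.11, -1.99 and 0.25 in the other-breed lymphomas. It overlapped between the groups and did not pass (mean difference -0.64, exact permutation p = 0.274, adjusted p = 0.274). Without other-breed lymphoma 3 the mean difference was -0.99 (exact permutation adjusted p = 0.0357). Leaving out any 1 library, that one included, leaves fewer arrangements. Without other-breed lymphoma 3 each of the 3 ratios had an exact permutation adjusted p of 0.0357. With any other library left out it was 0.0536 to 0.107 for STAT5B to STAT5A and 0.0536 to 0.161 for IL7R to IL2RG.

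**Figure D2:**
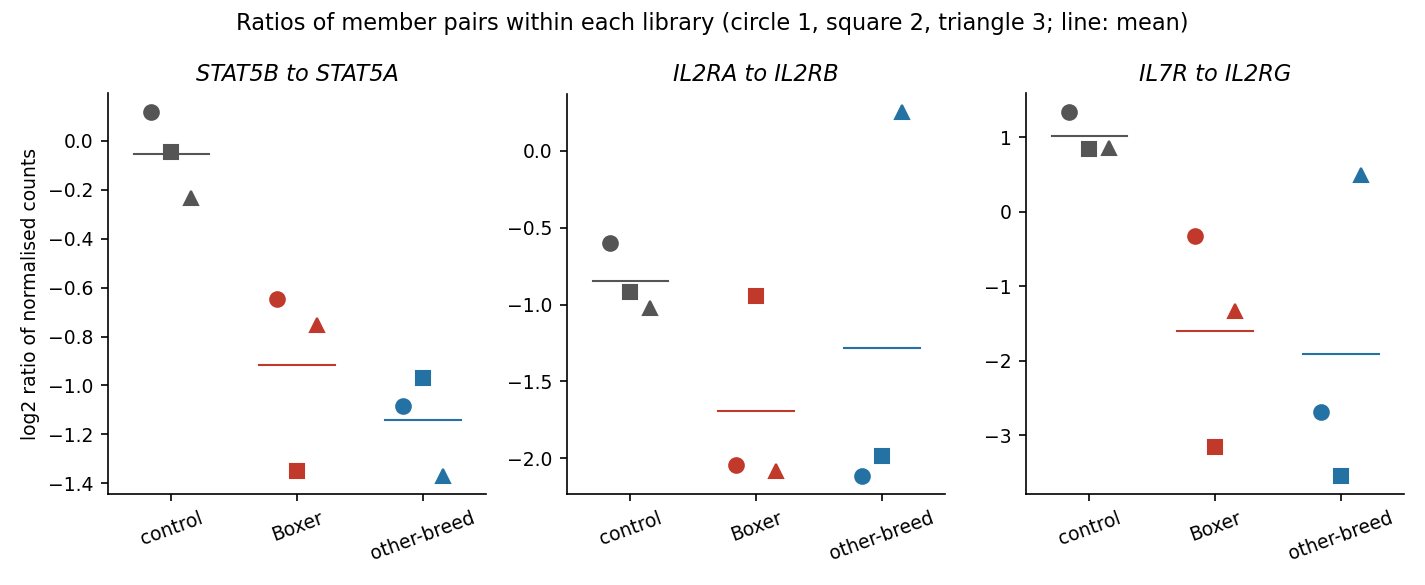
Log2 ratio of normalised counts of STAT5B to STAT5A, IL2RA to IL2RB and IL7R to IL2RG within each of the 9 libraries; points are libraries, shapes replicate numbers and lines group means. STAT5B to STAT5A lies between -0.23 and 0.12 in the controls and between -1.37 and -0.65 in the lymphomas, and other-breed lymphoma 3 has the highest ratio of IL2RA to IL2RB, 0.25.

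Set against the controls alone, the 3 Boxer lymphomas had lower transcripts of the same 8 genes that were lower over all 6 lymphomas. Of 15155 features tested, limma called 17.9% lower and 21.5% higher. IL2RA was 11.3-fold lower (log2 fold change -3.50 ± 0.27 SE, limma adjusted p = 2.18e-04) and IL2RB 6.31-fold lower (-2.66 ± 0.27). CISH was 4.54-fold lower (-2.18 ± 0.24, limma adjusted p = 6.81e-04) and IL7R 4.10-fold (-2.03 ± 0.47, limma adjusted p = 0.0121). JAK3 (-1.01), TYK2 (-1.17), STAT5A (-0.62) and STAT5B (-1.49) were lower as well, while IL2RG (0.59, limma adjusted p = 0.0656) and JAK1 (-0.31, limma adjusted p = 0.238) did not pass. Without control 1 the IL7R call ended (limma adjusted p = 0.0518). The STAT5A call (limma adjusted p = 0.0350) ended without Boxer lymphoma 3 (0.0658) or control 1, 2 or 3 (0.0757, 0.110 and 0.123), and with CD3 scaling (0.0640). In the fit without Boxer lymphoma 1, IL2RG passed (limma adjusted p = 0.0419).

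In the 3 other-breed lymphomas, compared with those same controls, 5 of the 10 genes were lower: IL2RB (-2.13 ± 0.41, limma adjusted p = 0.00986), JAK3 (-0.89 ± 0.16), TYK2 (-0.87 ± 0.19), STAT5A (-0.64 ± 0.19, limma adjusted p = 0.0396) and STAT5B (-1.72 ± 0.25, limma adjusted p = 0.00401). Of 14631 features, 14.2% were called lower and 15.5% higher. The log2 fold changes of IL2RA (-2.56 ± 0.94, limma adjusted p = 0.0776), IL7R (-2.45 ± 0.98, 0.0984) and CISH (-1.54 ± 0.74, 0.156) were large and did not pass. Without other-breed lymphoma 3 these became -3.77, -3.66 and -2.49 and passed (limma adjusted p = 0.00206, 0.00438 and 0.00308), which raised the count from 5 to 7, since STAT5A then did not pass (0.0797). The STAT5A call also ended with no filter (0.0575), total-read scaling (0.0655), CD3 scaling (0.0805), edgeR (0.0535), without other-breed lymphoma 1 (0.0709) and without control 1, 2 or 3 (0.0882, 0.125 and 0.132). Without control 2 or 3 the count of lower genes was 2 or 3, as JAK3 then ended without control 2 (limma adjusted p = 0.0523) and TYK2 without control 2 or 3 (0.0652 and 0.0639). JAK1 (-0.52 ± 0.19, limma adjusted p = 0.0804) passed by DESeq2 (0.0278) and with total-read scaling (0.04997). IL2RG (0.48 ± 0.22) passed without other-breed lymphoma 2 (limma adjusted p = 0.0238).

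**Figure D3:**
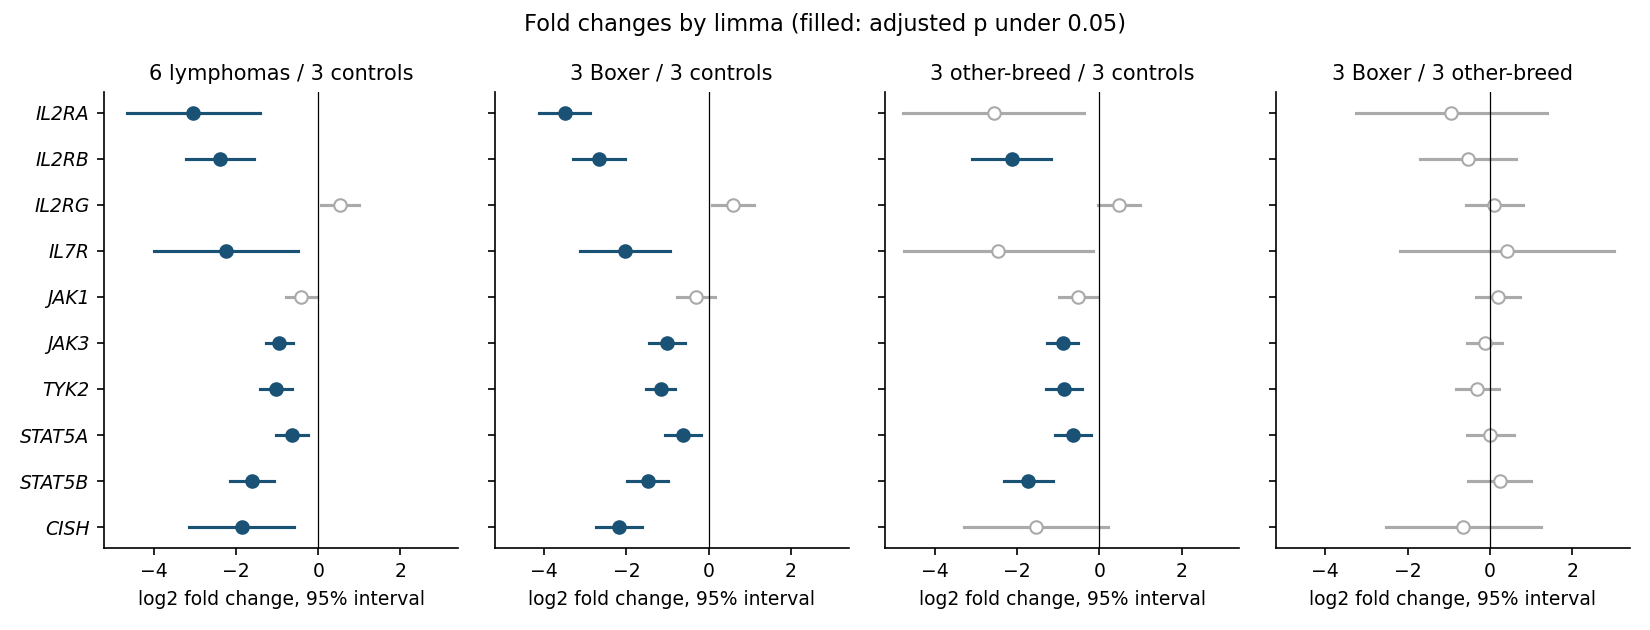
Log2 fold change of the 10 genes by limma with its 95% interval, in 4 panels: 6 lymphomas, 3 Boxer lymphomas and 3 other-breed lymphomas each against the 3 controls, and Boxer against other-breed lymphomas; filled points have an adjusted p under 0.05. Filled points number 8, 8, 5 and 0, and the intervals of IL2RA, IL7R and CISH are wide wherever other-breed lymphoma 3 takes part.

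Between Boxer and other-breed lymphomas 0 of the 10 genes differed by limma, and the percentage of all 15112 features called was 0 as well (0 by edgeR, 44 higher and 58 lower by DESeq2, 386 higher and 367 lower at an unadjusted p under 0.05). Of the 10 genes 0 separated the breed groups without overlap, against 10.7% of all features. The smallest adjusted p among the 10 was that of TYK2 (log2 fold change -0.30, 95% interval -0.83 to 0.23, limma adjusted p = 0.881). The interval was narrowest for JAK3 (-0.55 to 0.29) and wide for IL2RA (-3.25 to 1.38), CISH (-2.53 to 1.24) and IL7R (-2.18 to 3.02), so that differences of several fold in either direction were not detectable for IL7R.

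Taken singly, Boxer lymphomas 1, 2 and 3 and other-breed lymphoma 1 each had 9 of the 10 genes below all 3 controls and IL2RG above them. Other-breed lymphoma 2 had 9 below and IL2RG within the control range. Over all tested features, the share below all controls was 39.0%, 38.9% and 39.3% in Boxer lymphomas 1, 2 and 3 and 39.4% and 37.1% in other-breed lymphomas 1 and 2. The share above was 42.9%, 43.4% and 43.7%, and 39.7% and 41.8%. In other-breed lymphoma 3, the Collie, 6 of 10 were below (38.3% of all features), 2 above (43.1%) and 2 within. With all lymphomas considered, 6 genes lay below every control in every lymphoma (IL2RB, JAK1, JAK3, TYK2, STAT5A and STAT5B) and 0 above, against 17.2% and 18.5% of all features.

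**Figure D4:**
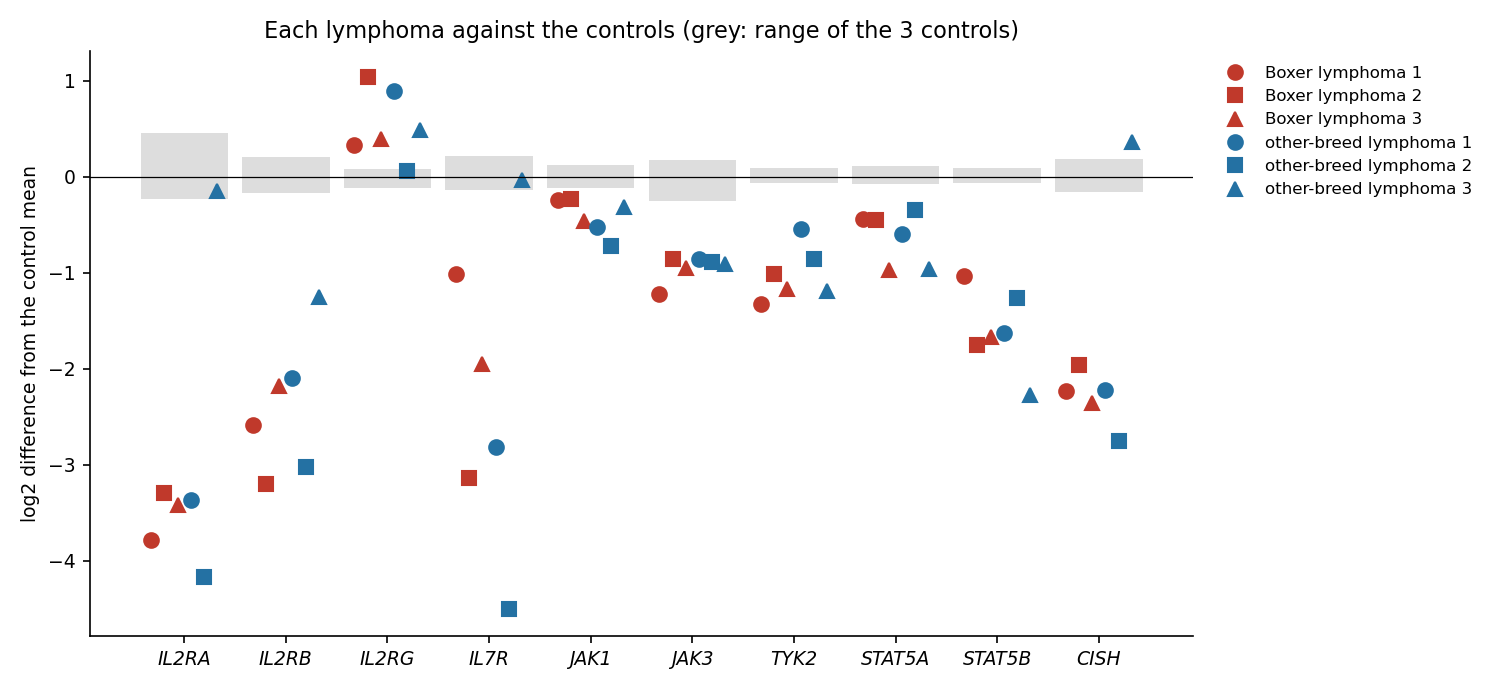
Log2 difference of each lymphoma from the mean of the 3 controls for the 10 genes; red marks are Boxer and blue marks other-breed lymphomas, and grey boxes span the controls. Other-breed lymphoma 3 (blue triangle) lies at -0.15 for IL2RA, -0.04 for IL7R and 0.36 for CISH, and at the bottom of the column for STAT5B.

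Other-breed lymphoma 3 was the highest lymphoma for IL2RA, IL2RB, IL7R and CISH. Relative to the mean of the other 5 lymphomas it had 10.8-fold IL2RA, 6.30-fold CISH, 4.62-fold IL7R and 2.47-fold IL2RB. Its STAT5B was 0.56 of their mean and the lowest of the 6, and its JAK1 (1.07) and JAK3 (1.03) were near their mean. It stood alone as the highest lymphoma, by a gap of over 0.625 of the whole range, for IL2RA and CISH among the 10 genes and for 2.31% of all features. The same library had the highest summed macrophage markers (18557, against 795 to 9262 in the other 5). Of this sum LYZ made up 16931, and without LYZ the sum was 1626 in other-breed lymphoma 3, 2520 in Boxer lymphoma 1 and 179 to 1359 in the other 4. It also had the highest endothelial sum (6244, against 94.2 to 4154). Its immediate early sum was the highest among the lymphomas (15644, against 4044 to 13678) and lay below every control (27780 to 102507). Its stromal sum was 7944, against 138 to 11077. The part of these markers in its receptor levels was not tested.

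Of the ligand genes, IL4, IL7, IL13 and TSLP were low in every library, while IL2, IL15 and IL21 were higher in some. IL2 was at 109, 133 and 55.6 normalised counts in the controls, at 113, 2.84 and 1.04 in the Boxer lymphomas and at 105, 52.8 and 1615 in the other-breed lymphomas. Other-breed lymphoma 3, with the high IL2RA and CISH, thus also had the most IL2, and the lymphomas as a group did not pass (log2 fold change -1.07 ± 1.77 SE, limma adjusted p = 0.659). IL7, made mainly by stromal cells, was between 0 and 19.1 everywhere (limma adjusted p = 0.921). IL15, whose receptor shares IL2RB and the gamma chain, was at 13.9 to 43.7 in controls and 30.6 to 334 in lymphomas (1.91 ± 0.77, limma adjusted p = 0.0768). It passed in the Boxer comparison (2.47, limma adjusted p = 0.0359). IL21, a product of helper T cells, was lower, at 350 to 513 in controls and 0 to 13.3 in lymphomas (-7.11 ± 0.92, limma adjusted p = 4.40e-04). IL4 was called lower, at 10.2 to 13.2 in controls and at most 4.16 in lymphomas (-2.88 ± 0.80, limma adjusted p = 0.0193). IL4 passed the filter of 10 only through the controls, so its test favoured a lower call. That call therefore gives no support for a difference. IL13 and TSLP were too low to test, and IL9 was not analysed here. Of 5 ligands tested, 2 were called lower, IL4 among them, and 0 higher (median -1.07). The counts of this list and of those below stand beside 15.7% lower and 19.4% higher over all features.

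Among 6 other receptors that pair with the gamma chain or are closely related to those that do, 2 were higher and 0 lower, with a median log2 fold change of -0.44. IL9R, the IL9 receptor chain, was at 25.9 to 73.5 normalised counts in controls. In lymphomas it ranged from 49.9 in other-breed lymphoma 3 and 60.7 in Boxer lymphoma 2 to 899 to 1422 in the other 4 (3.21 ± 1.13, limma adjusted p = 0.0493). IL13RA1, which pairs with IL4R, was higher, at 28.1 to 50.9 in controls and 75.3 to 913 in lymphomas (2.93 ± 0.68, limma adjusted p = 0.00825), with its highest value in other-breed lymphoma 3. IL4R (-0.25), IL21R (-0.89) and IL15RA (-0.74) did not pass. IL15RA, the neighbour of IL2RA on the chromosome, was at 95.5 in other-breed lymphoma 3 and at 6.31 to 28.4 in the other 5.

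Of 17 tested receptors that use JAK kinases outside this family, 3 were higher and 3 lower (median 0.04). These shares were near those of all features, 19.4% higher and 15.7% lower. The higher ones were CSF2RA (3.65), CSF2RB (2.81) and CSF3R (3.08), which bind growth factors of myeloid cells, and the macrophage and neutrophil markers were higher in the same libraries. Summed neutrophil markers, which include CSF3R, were 17.3 to 32.4 in controls and 104 to 412 in lymphomas. The lower ones were the interleukin 12 receptor chain IL12RB1 (-3.31), the leptin receptor LEPR (-2.36) and the interleukin 3 receptor chain IL3RA (-3.03). Of the other JAK and STAT genes, STAT3 was lower in every lymphoma, at 4687 to 5334 in controls and 2851 to 3753 in lymphomas (-0.60 ± 0.14, limma adjusted p = 0.00836). JAK2 (-0.33 ± 0.21, limma adjusted p = 0.242) and STAT6 (-0.44 ± 0.27, limma adjusted p = 0.212) did not pass.

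Genes listed here as inhibitors of the pathway were mostly without a call: of 18 tested, 1 was higher, 4 were lower and 13 did not pass (median 0.12). SOCS3, an inducible inhibitor of cytokine receptors, was at 182 to 264 normalised counts in controls and 3.15 to 61.6 in lymphomas (-3.68 ± 0.83, limma adjusted p = 0.00738). The ubiquitin ligases CBLB (-2.14) and CBL (-0.46) and the STAT inhibitor PIAS1 (-0.60) were lower. The phosphatase PTPN11, which is not purely an inhibitor, was slightly higher (0.39 ± 0.13, limma adjusted p = 0.0373). SOCS2, which like CISH is induced through STAT5, was at 13.9 to 37.2 in controls, 7.06 to 44.8 in 5 lymphomas and 138 in other-breed lymphoma 3 (0.54 ± 0.84, limma adjusted p = 0.640). SOCS1 (-1.34 ± 0.70, limma adjusted p = 0.155) did not pass.

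Of 10 adaptors that link the IL2 receptor to RAS and PI3 kinase, 3 were lower and 0 higher (median -0.52): the exchange factors SOS1 (-1.39) and SOS2 (-0.59) and the PI3 kinase subunit PIK3R1 (-1.16 ± 0.22, limma adjusted p = 0.00304).

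Genes that STAT5 is known to induce did not move one way. Of 22 listed 19 were found, and BCL2L1, PIM1 and LTA were not analysed here. Of 18 tested, 3 were higher, 7 lower and 8 did not pass (median -0.32), against 19.4% higher and 15.7% lower over all features. The cyclin gene CCND2 was higher, at 2229 to 2547 normalised counts in controls and 7341 to 23583 in lymphomas (2.38 ± 0.34, limma adjusted p = 7.46e-04), with the lowest lymphoma value in other-breed lymphoma 3. The receptor gene TNFRSF18 (2.21) and the perforin gene PRF1 (2.54) were higher too. The survival gene MCL1 was at 7419 to 8385 in controls and 2093 to 4333 in lymphomas (-1.24 ± 0.21, limma adjusted p = 0.00196). The kinase gene PIM2 (-2.13), the regulatory T cell gene IKZF4 (-1.44) and the growth regulator MYC (-0.68) were also lower, as were IRF4 and PRDM1. FOXP3, which defines regulatory T cells, was at 629 to 730 in controls, 56.0 to 142 in 5 lymphomas and 502 in other-breed lymphoma 3 (-2.52 ± 0.59, limma adjusted p = 0.00872). BCL2 ranged from 307 to 8700 in lymphomas and did not pass (limma adjusted p = 0.839). Among the regulatory T cell genes (6 of 7 found), other-breed lymphoma 3 was also the highest lymphoma for IKZF4 (286, against 129 to 194 in the other 5) and LRRC32 (50.9, against 1.90 to 7.06). For IKZF2 it was the lowest (1290, against 1850 to 2810). For TIGIT (114) and TNFRSF18 (1634) it was not the highest, with 645 TIGIT in Boxer lymphoma 1 and 1910 TNFRSF18 in other-breed lymphoma 2. Against the controls, IKZF2 and TNFRSF18 were higher in the lymphomas and FOXP3, IKZF4 and TIGIT lower. The summed regulatory T cell genes were 2619 to 3621 in controls, 3295 to 4333 in lymphomas and 3876 in other-breed lymphoma 3. The part of these genes in its IL2RA level was not tested.

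**Figure D5:**
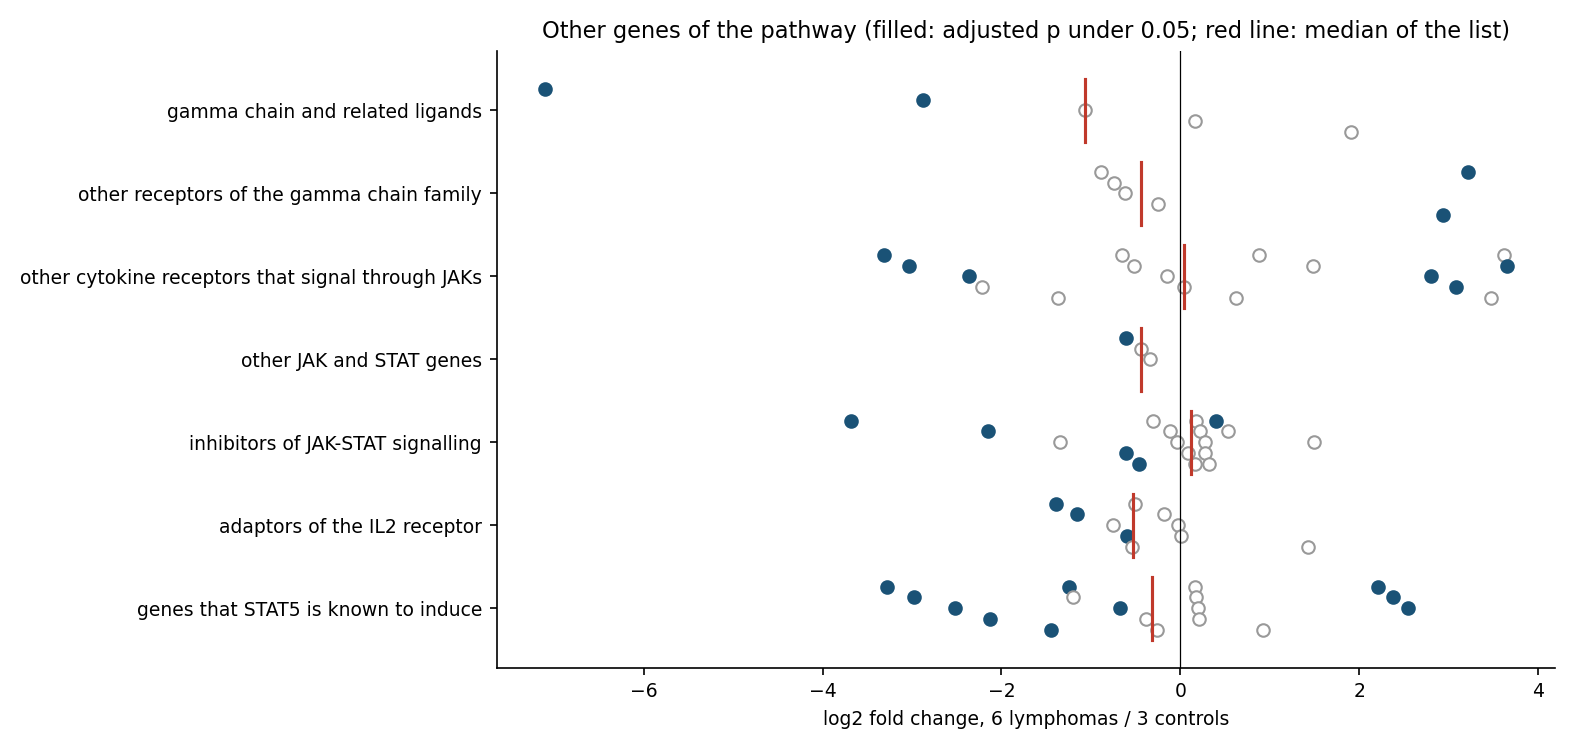
Log2 fold change, 6 lymphomas against 3 controls, of the other genes of the pathway in 7 lists; each point is 1 tested gene, filled where the limma adjusted p is under 0.05, and the red line is the median of the list. Medians lie between -1.07 (ligands) and 0.12 (inhibitors), and the genes induced by STAT5 have 7 filled points on the lower and 3 on the higher side.

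The genes whose levels across the 6 lymphomas were most like those of the 3 most variable members are given as a description. For IL2RA these were CISH (Pearson r = 0.99), STBD1 (0.99) and GORASP2 (0.99), for CISH they were IL2RA (0.99), BZW1 (0.98) and PFDN4 (0.98), and for IL7R they were EPOR (0.998), PLCD1 (0.98) and HSPB1 (0.98), all on log2 values over 6 libraries. They had the highest r among all tested features with a symbol, over only 6 libraries, so high values follow from the choice. Without other-breed lymphoma 3, over 5 libraries, r went from 0.99 to 0.84 for IL2RA with CISH, from 0.72 to 0.36 for IL2RA with IL7R and from 0.74 to 0.49 for IL7R with CISH. EPOR, the erythropoietin receptor, which also signals through STAT5, was at 43.7 to 95.8 normalised counts in controls. It was at 407, 55.0 and 171 in the Boxer lymphomas and at 89.5, 11.8 and 1058 in the other-breed lymphomas. This put the 6 lymphomas in the same order as IL7R did, which the choice by highest r makes likely.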

How the data were processed

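RNA was measured in 9 libraries. Polyadenylated RNA was captured with oligo(dT) and primed with random hexamers, per the labels' protocols, and whether libraries kept the strand is not stated there. The submitters' processing notes name TopHat2, HTSeq, DESeq2 and CanFam3.1 without tool versions. The deposited signal is the authors' read count of each gene over a size factor (median of ratios, recomputed here), and whole reads could be recovered for 100% of values within a tolerance of 0.01. Each library held 11710623 to 18488468 reads, and each of the 10 genes had at least 92 reads in every library.

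The main test was limma 3.58.1 in R 4.3.3 on log2(value + 1) with a mean-variance trend, for features at 10 or more in at least 3 of the compared libraries, with Benjamini-Hochberg adjustment over all features tested and a threshold of 0.05. Fold changes on that scale understate those of low genes. Only the libraries of a comparison entered its fit. The comparisons of Boxer and of other-breed lymphomas with controls share their controls. Alternatives were pseudocounts of 0.5 and 5, no filter or one of 50, TMM, total-read and CD3 scaling (by 3 CD3 genes), edgeR 4.0.16 and DESeq2 1.42.0 on recovered reads, a replicate block, sex, age, female dogs alone and each library left out. Leaving out other-breed lymphomas 1 and 2 was added after seeing the data. Scripts were tested on simulated data.

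The 10 genes and all gene lists were chosen with earlier results of these data known. Named from the lists were up to 4 genes per direction with the smallest p, the ligands, JAK2, STAT3 and STAT6, and, for members whose lymphomas spanned at least 4-fold, the 3 features most correlated over the lymphomas. IL4R, IL15RA, IL21R, SOCS1, SOCS2, FOXP3, BCL2, IRF4, PRDM1, IKZF2, LRRC32, TIGIT, CD2 and CD5 were named after their values were seen. Neighbouring genes came from RefSeq, in which all 10 symbols matched.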

Additional observations from a re-analysis of the deposited data

Results flagged for a closer look

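Across 67 values and sums examined in the 6 lymphomas, 11 had 1 library whose gap to the nearest other exceeded 0.625 of the whole range. Chance flags about 1 in 20 such groups, while among all 15977 features tested 13.2% had a lymphoma that stood apart on either side and 12.1% on the high side. Other-breed lymphoma 3 stood apart on the high side for IL2RA (1199 normalised counts), CISH (655), IL2 (1615), IL15RA (95.5), SOCS2 (138) and FOXP3 (502). Other-breed lymphoma 1 stood apart on the high side for STAT6 (3039), for summed B cell markers (6347) and for summed markers of CD8 T cells and natural killer cells (1428). Other-breed lymphoma 2 was apart for LEPR (67.0), and Boxer lymphoma 1 on the low side for JAK3 (3230). Across all 15977 features, the share for which a library stood alone as the highest lymphoma was 1.10% to 2.56%, and other-breed lymphoma 3 (2.31%) was not the highest of the 6.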

How the results depend on the processing

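Refits of the 10 genes against controls were counted as unchanged if they stayed on the same side of the threshold, called or not. That held in 198 of 229 for all lymphomas, 150 of 160 for Boxer and 140 of 159 for other-breed lymphomas, and no direction reversed. Over all lymphomas the IL7R call was kept in 13 of 23 refits, and in the other-breed comparison the STAT5A call in 6 of 16. For lymphoma versus control, the age covariate gave 1048 features higher and 885 lower, and 5 members lower, as did edgeR (5); DESeq2 gave 1 member higher (IL2RG), as did leaving out other-breed lymphomas 1 and 2 (1). With 1 library left out, features higher numbered 1866 to 3291, features lower 1194 to 2605, members lower 4 to 8 and members higher 0 to 1. In the Boxer comparison CD3 scaling and DESeq2 each gave 1 member higher (IL2RG), and leaving out 1 library gave 2108 to 2570 features higher, 1238 to 2821 lower, and 0 to 1 members higher. In the other-breed comparison CD3 scaling gave 1461 features higher, so that 42.3% of calls were higher against 52.1%, and it moved the median of all features from -0.03 to -0.17. Leaving out 1 library there gave 1007 to 2155 features higher, 617 to 2464 lower, and 2 to 7 members lower and 0 to 1 higher. Between the breed groups DESeq2 gave 44 higher and 58 lower and a pseudocount of 5 gave 2 lower, with 0 to 1 when 1 library was left out. There 16 refits of members changed sign, all far from the threshold. IL7R was -0.39 by edgeR, -0.42 by DESeq2, -0.09 without Boxer lymphoma 1 and -0.61 without other-breed lymphoma 2. STAT5A was -0.016 with TMM, -0.0066 by edgeR, -0.0016 by DESeq2 and -0.08, -0.07 and -0.15 without Boxer lymphoma 1, Boxer lymphoma 2 or other-breed lymphoma 3. JAK3 was 0.0097 with CD3 scaling. IL2RG was -0.11 without Boxer lymphoma 2 and -0.10 without other-breed lymphoma 2. Without other-breed lymphoma 3, IL2RA was 0.27, STAT5B -0.039 and CISH 0.30. With 1 library left out at a time, these values spanned -1.74 to 0.27 for IL2RA, -0.11 to 0.31 for IL2RG, -0.61 to 1.63 for IL7R, -0.15 to 0.19 for STAT5A, -0.039 to 0.47 for STAT5B and -1.25 to 0.30 for CISH. The cause was not tested. With 1 library left out, the mean difference in log2 ratio was -1.07 to -0.89 for STAT5B to STAT5A, -3.23 to -2.42 for IL7R to IL2RG and -0.99 (without other-breed lymphoma 3) to -0.51 for IL2RA to IL2RB. With fewer libraries these exact permutation tests have fewer arrangements, and adjusted p was 0.107 for STAT5B to STAT5A without control 1. Other-breed lymphoma 2 had 1 member above the controls with total-read or CD3 scaling.

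The replicate numbers did not pair the libraries: same-numbered libraries had r of -0.14 to 0.10, with 1 of 9 pairs over 0.1, and a library correlated best with its own number in 5 of 18 cases. With the replicate block 2752 features were higher and 2158 lower in lymphoma versus control (2937 and 2381 for Boxer, 1682 and 1430 for other-breed lymphomas, 0 and 0 between breeds). STAT5A then had a limma adjusted p of 0.0703 in the Boxer and 0.0804 in the other-breed comparison.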
